A study of Mus musculus with 18 samples.

Results

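The accessibility of 10 genes of axon injury and neuronal stress was examined in mouse retina: Map3k12, Sarm1, Nmnat2, Sox11, Gap43, Ddit3, Atf4, Klf6, Klf7 and Sprr1a. They were listed for their known roles in the response of neurons to axon damage, by a rule that uses no measured value but with earlier results of these data known, and they are 10 of the 55450 genes in the annotation. Peaks were assigned to a gene when they overlapped the stretch from 10 kb upstream of its start to its end (mm10, GENCODE M21). Chromatin accessibility was measured by ATAC-seq, in which a transposase cuts open DNA, and each library was available as a list of peaks with their fold enrichment over background. Peaks of all libraries were merged into consensus regions, kept when at least 2 libraries held a peak there, and 42 of the 73567 consensus regions belonged to 9 of the 10 genes.

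The 18 libraries came from whole retinas (bulk retina) of wild-type (WT) mice in 6 groups of 3. At 3 months (3mo) and at 18 months (18mo) of age these were untreated retinas, retinas whose intraocular pressure (IOP) had been held at 30 mmHg for 1 hour in one eye and collected at day 2, and the contralateral control retinas of such unilaterally treated mice. A treatment text shared by all samples describes dasatinib and vehicle injections after IOP elevation, but the labels put no library in a drug arm, so which injection the day 2 mice received is not given in the sources used here. The extraction text shared by all samples likewise describes an immunoprecipitation of acetylated histone H3 before the ATAC-seq library steps, while every sample title says ATAC-Seq, and the peaks were read as ATAC-seq peaks. It is not stated whether a library held 1 retina or several, so p-values measure the spread between these libraries. In whole retina, a change in the number of cells of one type and a change within those cells cannot be told apart.

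The lists held 36011 to 66160 peaks. The shortest peak in a list was 79 to 89 bp in the untreated libraries, 114 to 122 bp in 5 day 2 libraries and 148 to 157 bp in the other 7, so the kinds of control differed in this measure as well as in treatment, and these cannot be told apart. The 18mo IOP lists (36011 to 48723 peaks) were all shorter than the 18mo contralateral lists (51166 to 60755 peaks). The tissue label was checked against marker promoters: those of all 4 rod markers were called in every library, while among the 4 retinal ganglion cell markers Pou4f1 was called in 18 libraries, Rbpms in 15, Pou4f2 in 9 and Slc17a6 in 0. Calls were also patchy for cones, bipolar cells, amacrine and horizontal cells, and Müller glia. In each of these lists 1 of 3 markers was called in every library, and the lowest were called in 13, 7, 8 and 9 libraries. No promoter of the pigment epithelium, microglia, endothelium, lens or non-eye lists was called in any library. Ganglion cells, the neurons whose axons form the optic nerve, are a small share of the retina.

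After an axon is damaged, stress kinases carry a signal from the axon to the nucleus, where transcription factors switch on programmes that lead either to regrowth or to death of the neuron. Map3k12 encodes DLK, the kinase at the head of this signal. SARM1 is an enzyme that consumes NAD+ and drives the breakdown of the cut axon, and NMNAT2, a short-lived enzyme of NAD+ synthesis, keeps SARM1 in check. ATF4 and DDIT3 (CHOP) are transcription factors of the integrated stress response, SOX11, KLF6 and KLF7 are transcription factors that promote axon regrowth, and GAP43 and SPRR1A are proteins of growing axons. Sprr1a is silent in intact neurons and induced by nerve injury.

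The promoters differed in sequence. Shown here are 200 bases ending just before the annotated start for Klf6 and Atf4, open in all libraries, for Nmnat2 and Gap43, open in some, and for Sprr1a, open in none, together with 200 bases around the summit of the Sox11 promoter peak and of an intronic Gap43 peak, because the comparisons below turn on these. All are from the GRCm38.p6 genome of RefSeq, read 5′ to 3′ on the gene's strand. Capitals mark matches on either strand to 8 searched motifs: the GC box (GGGCGG), the CCAAT box (CCAAT), the TATA box (TATAAA), the CRE core (TGACG), the AP-1 site (TGANTCA), a C/EBP-ATF element (TGATGNAA), a STAT site (TTCNNNGAA) and a CRX site (TAATCC).
Klf6, chr13:5861282-5861481, plus strand: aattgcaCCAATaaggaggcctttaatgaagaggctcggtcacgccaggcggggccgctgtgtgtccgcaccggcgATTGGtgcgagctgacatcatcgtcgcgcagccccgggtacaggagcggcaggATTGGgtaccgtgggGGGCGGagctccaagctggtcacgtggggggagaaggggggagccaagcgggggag
Atf4, chr15:80254984-80255183, plus strand: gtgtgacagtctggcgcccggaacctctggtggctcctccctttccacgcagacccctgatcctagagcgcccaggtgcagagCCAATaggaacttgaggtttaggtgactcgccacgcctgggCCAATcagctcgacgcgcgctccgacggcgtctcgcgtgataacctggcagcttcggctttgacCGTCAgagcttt
Nmnat2, chr1:152954793-152954992, plus strand: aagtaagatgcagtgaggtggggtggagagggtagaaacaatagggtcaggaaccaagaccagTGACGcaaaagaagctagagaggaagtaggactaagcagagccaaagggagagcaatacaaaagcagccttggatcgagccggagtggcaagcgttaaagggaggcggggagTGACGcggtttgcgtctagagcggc
Gap43, chr16:42340652-42340851, minus strand: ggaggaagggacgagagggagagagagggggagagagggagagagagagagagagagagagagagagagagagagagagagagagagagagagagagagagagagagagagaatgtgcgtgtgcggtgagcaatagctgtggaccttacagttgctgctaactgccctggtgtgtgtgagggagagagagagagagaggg
Sprr1a, chr3:92485896-92486095, minus strand: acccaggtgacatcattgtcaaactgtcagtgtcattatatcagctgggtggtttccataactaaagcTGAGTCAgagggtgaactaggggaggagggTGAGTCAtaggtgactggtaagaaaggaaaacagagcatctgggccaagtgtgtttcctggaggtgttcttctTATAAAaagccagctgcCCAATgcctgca
Sox11 promoter peak, chr12:27342967-27343166, minus strand: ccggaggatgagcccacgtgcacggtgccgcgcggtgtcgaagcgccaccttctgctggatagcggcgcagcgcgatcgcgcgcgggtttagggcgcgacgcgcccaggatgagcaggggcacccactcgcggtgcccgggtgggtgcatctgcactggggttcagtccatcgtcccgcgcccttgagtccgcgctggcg
Gap43 intron peak, chr16:42276546-42276745, minus strand: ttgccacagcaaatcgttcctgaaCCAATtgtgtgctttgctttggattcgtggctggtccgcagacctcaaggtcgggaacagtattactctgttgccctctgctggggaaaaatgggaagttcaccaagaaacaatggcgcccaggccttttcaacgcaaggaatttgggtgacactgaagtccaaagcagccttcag

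Klf6 held 3 CCAAT boxes and 1 GC box, and Atf4 held 2 CCAAT boxes and 1 CRE core. Nmnat2 held 2 CRE cores, and Sprr1a held 2 AP-1 sites, a TATA box and a CCAAT box. Of 21933 promoters of the same length, 37.5% held a GC box, 31.7% a CCAAT box, 17.2% a CRE core, 9.29% a TATA box and 4.82% an AP-1 site. The other motifs were held by 2.78% (C/EBP-ATF), 5.80% (STAT) and 5.40% (CRX) of promoters and by none of the sequences shown. A match is a match of letters and not evidence of binding. The 200 bases around the Sox11 summit had 72% G and C bases and 29 CpG pairs. In the 200 bases before the annotated start, Sox11 had 63% and 17 CpG pairs. The Sprr1a promoter had 47.5% and 0 CpG pairs, against a median of 55% over all promoters. The Gap43 promoter contained an unbroken repeat of GA, in which G and A alternate, of 74 bases. A GA repeat of that length was reached in 6 of the 21933 promoters (0.0274%).

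**Figure D1:**
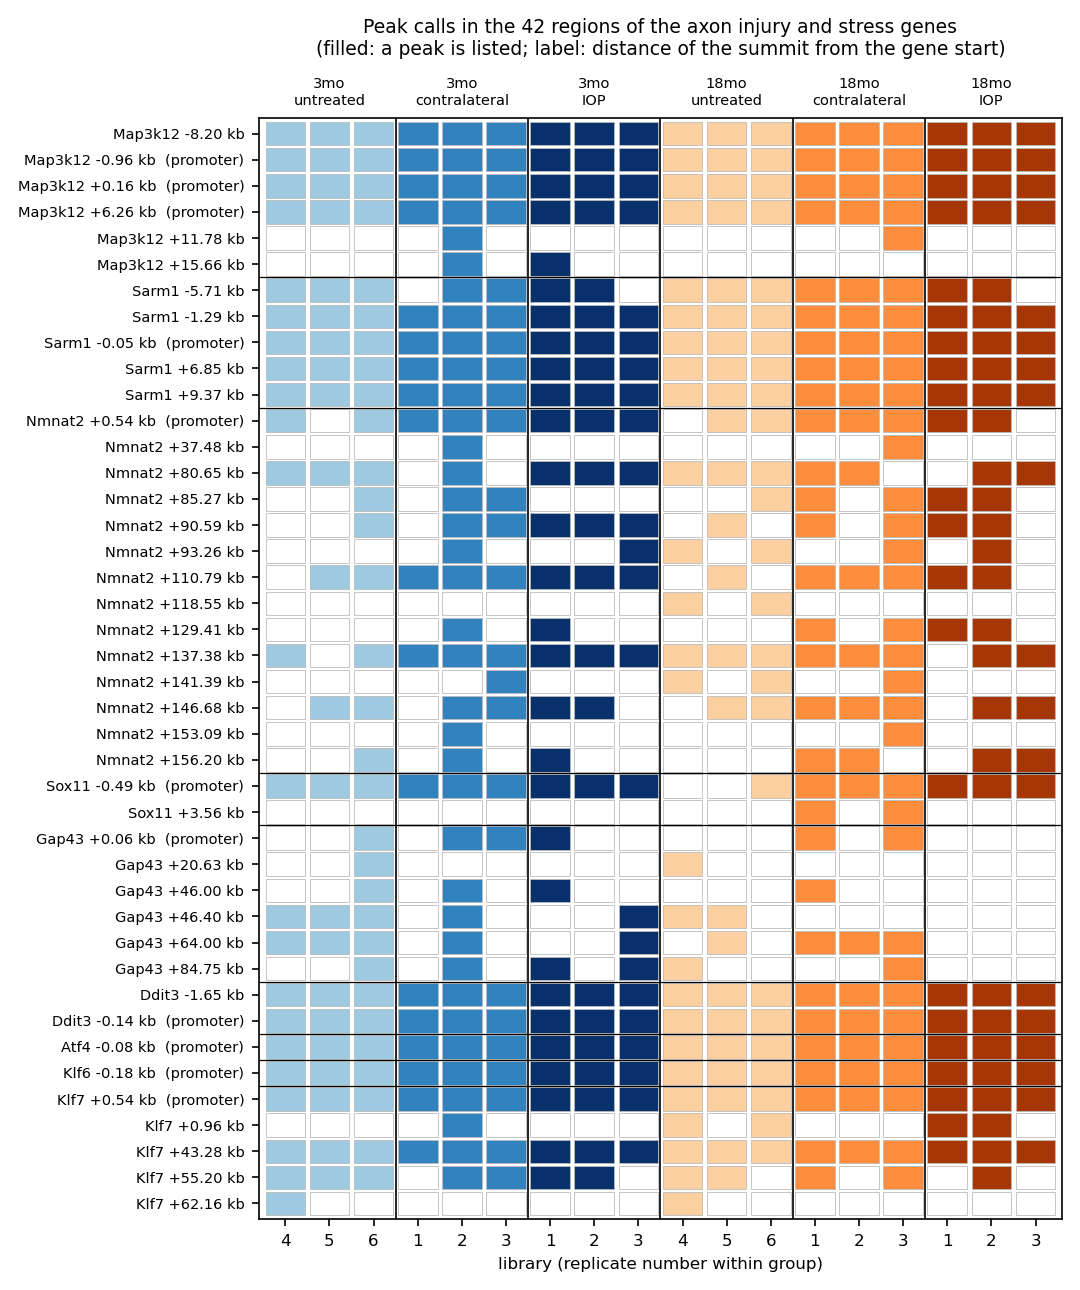
Calls of the 42 regions of the 9 genes that had any (rows) in the 18 libraries ordered by group (columns), filled where a peak was called. The promoters of Map3k12, Sarm1, Ddit3, Atf4, Klf6 and Klf7 are filled in all 18 libraries, Nmnat2 introns and Gap43 regions are patchy, and the Gap43 block is empty in all 3 18mo IOP libraries.

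The axon injury genes fell into 3 classes by their promoters (1 kb upstream to 100 bp downstream of an annotated start). The promoters of 6 genes (Map3k12, Sarm1, Ddit3, Atf4, Klf6 and Klf7) were called in all 18 libraries. Those of Sox11, Nmnat2 and Gap43 were called in 16, 15 and 6 libraries. Sprr1a, on chromosome 3 at 92483952 to 92485895, had no peak at its promoter, in its body or within 10 kb upstream in any library. For comparison, 53.2% of 21924 protein-coding genes had a promoter called in every library, 9.29% in some and 37.5% in none. Over all their regions the genes were close to the series as a whole: 14 of 42 regions were called in every library (33.3%), against 33.6% of all consensus regions. By the place of their median summit, 14 of the 42 lay at a promoter, 6 in exons and 22 in introns (the Nmnat2 promoter region among them), with 1 of 22 intronic and 11 of 14 promoter regions called in every library. The same contrast holds over the series, where 22.3% of intronic and 74.9% of promoter regions were called in every library.

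Other genes of the same pathways, a fixed list of 48 in DLK and JNK signalling, axon survival, the integrated stress response, the unfolded protein response and axon growth, had open promoters in nearly every case. In 44 of 48 the promoter was called in all 18 libraries. The exceptions were Stmn2 (14 libraries), an axon maintenance gene, Marcks (15), Eif2ak2 (17) and Gal (2), a neuropeptide gene of injured neurons. Gap43 thus had fewer calls at the promoter than any listed gene except Gal, and Sprr1a had fewer than all of them.

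At Map3k12, 80 listed peaks formed 6 regions, of which 4 were called in every library. The highest in fold was not at the main start but 6.26 kb inside the gene (chr15:102510119-102511146), over the start of a shorter Map3k12 transcript, with a median fold of 10.5. The region at the main start (chr15:102516637-102517418) had a low median fold of 3.72, which is the 8.38th percentile of all regions. One of higher fold 0.96 kb upstream (chr15:102517669-102518928, fold 8.42) is shared with the promoter of the neighbouring Tarbp2, into which the main start region also reaches. By −log10 q the order differed, with medians of 81.6 at the shared region, 48.3 at the internal one and 16.4 at the main start. The fourth (chr15:102525048-102525506, 8.2 kb upstream) lies at the promoter of Npff and was called in every library with a median fold of 6.71. The remaining 2 regions, in exons, were called in 2 libraries each.

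At Sarm1, 108 listed peaks formed 5 regions. Its promoter (chr11:78496937-78498166) had a median fold of 7.41 and a summit that stayed between -73 and -20 bp from the start in all 18 libraries, and it also reaches the promoter of Vtn. An exonic region 6.85 kb (chr11:78490604-78491221, fold 5.44) and an intronic region 9.37 kb (chr11:78488145-78488731, fold 6.05) inside the gene were also called in every library. The other 2 regions lay at the promoters of Vtn (18 libraries) and Sebox (15 libraries).

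Nmnat2, the counterpart of Sarm1, looked different. It is a long gene of 164 kb, had the most regions of any member (14, from 142 listed peaks), and none of them was called in every library. Its promoter (chr1:152954898-152956530) was called in 15 libraries, with folds between 3.56 and 7.02, and the summit moved between -34 and 1450 bp from the start. The most often called intronic regions lay at 137.38 kb (16 libraries), 80.65 kb (14), 110.79 kb (14) and 146.68 kb (13) from the start, and all 13 regions other than the promoter lay at least 37.48 kb into the gene. In addition, 7 Nmnat2 peaks were seen in 1 library only.

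**Figure D2:**
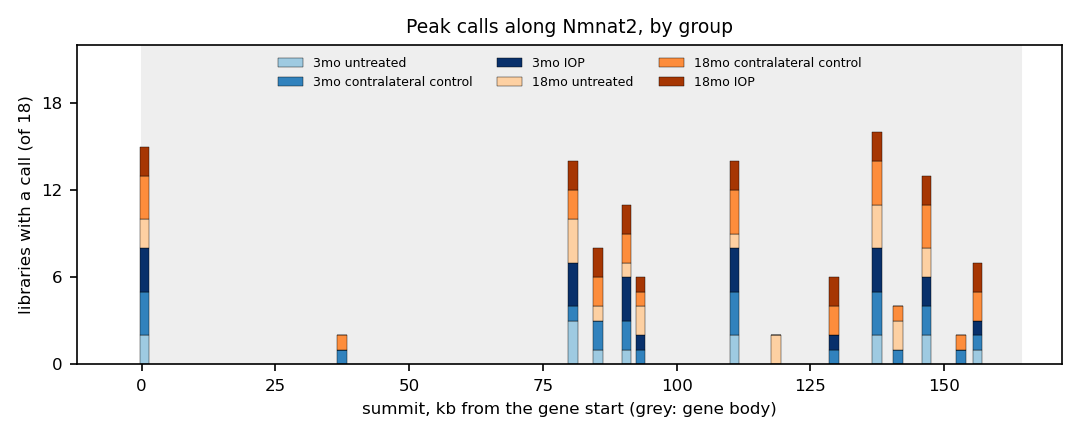
The 14 Nmnat2 regions by distance of the summit from the gene start in kb (horizontal axis) and number of libraries with a call out of 18 (vertical axis), stacked by group. The promoter bar reaches 15 libraries, the next region lies at 37.48 kb, and no bar reaches 18.

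The stress response genes were compact and uniform. Atf4, the master transcription factor of the integrated stress response, had a single consensus region (chr15:80254644-80256240) over its promoter and first exons, called in all 18 libraries with a median fold of 7.41 and summits between -112 and -54 bp from the start. Ddit3, a target of ATF4 that promotes cell death, had a promoter region (chr10:127289855-127291280) called in all 18 with a median fold of 6.92 and summits between -161 and -77 bp. That region also reaches the promoters of Gm4189 and Mbd6. A second Ddit3 region lay at the promoter of the neighbouring Mbd6.

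Among the regeneration factors, Klf6 had the most accessible promoter of the members (chr13:5860700-5862031): its folds ran from 11.7 to 17.2 with a median of 14.7, higher than in 96.2% of all regions. Klf7 had a promoter region (chr1:64121519-64122580) with a median fold of 11, and an exonic region 43.28 kb inside the gene, at the promoter of the transcript Gm13748, with a fold of 11.4, both in all libraries. Sox11 contrasted with both. Its promoter region (chr12:27342678-27343448) had a median fold of 5.83 and was missing from 2 libraries, and its summit wandered between -696 and -217 bp from the start.

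Gap43 was the least often called of the genes that had any peak, relative to its length of 92.2 kb. Its promoter region (chr16:42340533-42340716) was only 184 bp wide and was called in 6 libraries. Of its 5 intronic regions, the one 64 kb from the start (chr16:42276538-42276842) was called most often, in 9 libraries.

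Age was compared first, between 6 control libraries at 18mo and 6 at 3mo (untreated and contralateral together). The number of peaks per gene did not separate the ages for any of the 9 genes tested, against 1.57% of 26715 genes with an unadjusted p under 0.05 in the exact permutation test. For Nmnat2 the 3mo controls had 3, 3, 12, 4, 16 and 7 peaks and the 18mo controls 5, 6, 9, 12, 6 and 13, a difference of 1 peak (exact permutation p = 0.740). The ranges overlapped almost entirely, and the spread within an age exceeded the difference. Gap43 had 2, 2, 6, 0, 5 and 1 peaks at 3mo and 3, 2, 0, 3, 1 and 3 at 18mo (p = 0.647, exact permutation test). Called or not called, an age comparison by Fisher's exact test was possible for 4 member regions and 0 had p under 0.05, against 3.58% of 9868 regions. No gene and no region of the whole series passed after Benjamini-Hochberg adjustment (smallest adjusted p = 1 for peaks per gene by permutation, and 0.345 for calls by Fisher's exact test).

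The height of the constant peaks was compared next. In limma, on the log2 fold at the highest summit relative to the library's median, 0 of the 14 member regions called in every library passed an adjusted p of 0.05, against 0.343% of 24751 regions. All 14 estimates were slightly lower at 18mo, with a median of -0.08 on the log2 scale compared with -0.04 over all regions. The largest was at Atf4, lower by 0.14 (log2 change -0.14, SE 0.096, limma adjusted p = 0.547). At Klf6 the change was -0.04 (SE 0.070, adjusted p = 0.817 in limma).

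The Sox11 promoter was the member region whose values differed most with age. Its folds were 6.64, 7.59 and 9.30 in the 3mo untreated libraries and 6.02, 6.79 and 4.91 in the 3mo contralateral ones. At 18mo, 2 of the 3 untreated libraries had no peak there and the other had a fold of 4.11, and the contralateral libraries had folds of 4.79, 3.95 and 5.89. Within each control kind every 3mo library was above every 18mo library except in the contralateral pair of 4.91 at 3mo and 5.89 at 18mo.

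Because folds are scaled differently between libraries, each was also expressed as a percentile among the called regions of its own library, with 0 for no call, an alternative chosen after the data had been seen. The Sox11 promoter stood at 40.4, 53.4 and 62.6 (untreated) and 54.3, 55.0 and 34.7 (contralateral) at 3mo. At 18mo it stood at 0, 0 and 5.87 (untreated) and 24.2, 15.3 and 39.4 (contralateral). The mean was 14.2 at 18mo and 50.1 at 3mo, 35.9 points apart in the exact permutation test (p = 0.00433), with 1 library of each age overlapping. Adjusted over all 72766 regions the p was 0.480 (exact permutation test, Benjamini-Hochberg), so the difference did not pass, nor did any other region of the series (smallest adjusted p = 0.387 by permutation).

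Within libraries of like peak length the percentiles were not tested, and their values are given side by side. In the call tests for age, shortest peak length as a stratum left 0 regions of the series past adjustment. Among contralateral libraries with a shortest peak of 114 to 122 bp the percentile was 55.0 at 3mo against 24.2 and 39.4 at 18mo, and among those of 148 to 157 bp it was 54.3 and 34.7 against 15.3. Without any one control library the difference in the Sox11 promoter over all controls stayed between -41.0 and -33.1 points. Ranked by the −log10 q-value in place of the fold, the 18mo controls (0 to 27.8) lay below the 3mo controls (27.9 to 55.4), with the nearest libraries almost level, as in 0.0783% of regions (exact permutation p = 0.00216, the smallest possible, adjusted p = 0.365). When each list was reduced to an equal number of peaks, the Sox11 promoter was called in 6 of 6 controls at 3mo and 0 of 6 at 18mo (Fisher's exact test p = 0.00217, adjusted p = 0.196). The lists were cut by −log10 q, so this call rests on the same values as that ranking and is no separate measurement.

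By percentile of the fold, 3 of 42 member regions were lower at 18mo with an unadjusted p under 0.05 by exact permutation, against 1.22% of 72766 regions. By the same measure 0 were higher, against 4.06% of all regions. The others were the promoters of Sarm1 (mean percentile 58.1 against 61.5, p = 0.0217, exact permutation test) and Atf4 (57.5 against 61.7, p = 0.0390, exact permutation test). These differences (-3.41 and -4.20 points) were smaller than that of Sox11, and neither passed adjustment. Ranked by −log10 q, 1 member region, the Sox11 promoter, was lower at that level, against 0.708% of all regions. The Sarm1 promoter then stood at 88.5 against 88.2 (p = 0.66, exact permutation test). Atf4 stood at 88.9 against 90.1 (p = 0.136, exact permutation test).

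**Figure D3:**
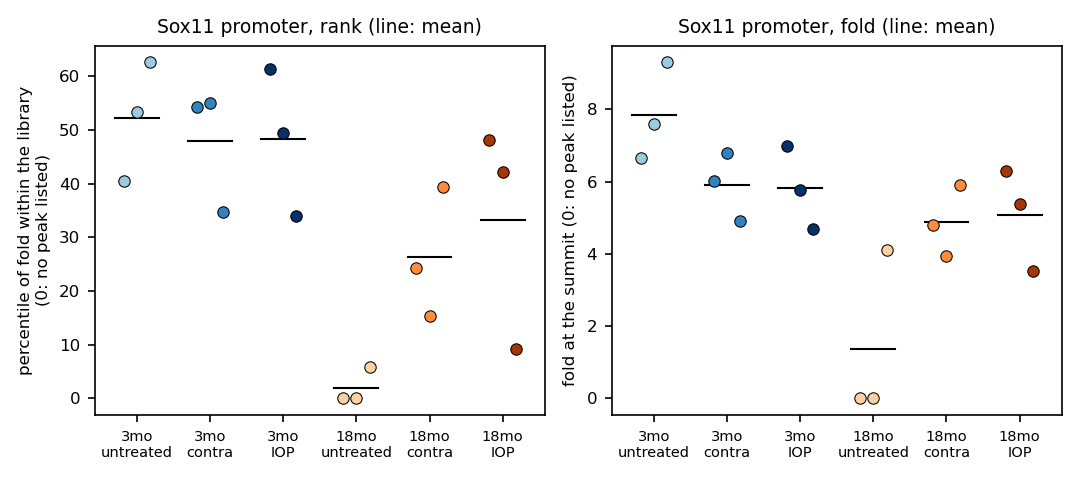
Sox11 promoter region in each library by group, as percentile among the called regions of the same library (left) and as fold enrichment (right), with 0 for no call and a line for the mean. The 3mo controls lie at percentiles of 34.7 to 62.6 and the 18mo controls at 0 to 39.4, while the IOP libraries of both ages overlap (34.0 to 61.4 and 9.15 to 48.1).

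IOP elevation was compared with the contralateral control retina at the same age, which asks what differed at day 2 after 1 hour of raised pressure. The paper's methods raised it by infusion through a needle in the cornea, so the contrast may include this procedure as well as the pressure. Over both ages, the number of peaks per gene changed in 0 of the 8 genes tested, against 1.24% of 23623 genes with an unadjusted p under 0.05 (exact permutation within age). Calls changed in 0 of 3 member regions tested, against 5.04% of 5572, and no feature of the series passed adjustment (smallest adjusted p = 0.397 for calls in the exact conditional test).

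Gap43 was the gene whose peaks separated the 18mo groups. The contralateral libraries held 3, 1 and 3 Gap43 peaks and the IOP libraries 0, 0 and 0. This was the smallest p 3 against 3 libraries allow (0.1, exact permutation test), and 1 of 7 members lay apart in this direction, against 6.38% of 20680 genes. At 3mo the contralateral libraries held 0, 5 and 1 peaks and the IOP libraries 3, 0 and 3, with no difference in means (p = 1, exact permutation test). The difference between the ages in the effect of IOP was -2.33 peaks (p = 0.3, exact permutation test, adjusted p = 1).

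The region behind this was the Gap43 intron peak at 64 kb shown above. It was called in 3 of 3 contralateral and 0 of 3 IOP libraries at 18mo, a loss shared by 2.23% of all regions. Its folds in the contralateral libraries were 5.36, 4.21 and 5.47. At 3mo it was called in 1 of 3 libraries on each side, and in the untreated retinas in 3 of 3 at 3mo and 1 of 3 at 18mo. Over both ages 1 IOP and 4 contralateral libraries held it (exact conditional p = 0.260, adjusted p = 0.785), and the same counts and p were found for the Gap43 promoter. No member region was gained at 18mo (0.239% of all regions were), and none was gained (0.217%) or lost (0.241%) at 3mo. With lists of equal length the 18mo contralateral libraries held 0 to 1 Gap43 peaks and the IOP libraries 0, and the intron peak was no longer lost. The shortest peak was 114, 149 and 114 bp in 18mo contralateral replicates 1 to 3, and 122, 148 and 148 bp in the IOP ones. How far the shorter 18mo IOP lists or this difference in peak length account for the counts was not tested further.

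Nmnat2 did not show a like pattern. At 18mo the contralateral libraries had 12, 6 and 13 peaks and the IOP libraries 5, 12 and 4, and at 3mo they had 4, 16 and 7 against 11, 8 and 6. Over both ages IOP libraries had 2 peaks fewer on average (exact permutation p = 0.455), with overlap at each age. Sox11 had 2 peaks in each 18mo contralateral library and 1, 2 and 1 in the IOP libraries, and its promoter was called in all of both. With lists of equal length the order turned, with 0 Sox11 peaks in each 18mo contralateral library and 1 to 2 in each IOP library (exact permutation p = 0.1, the smallest possible), and every 18mo IOP library but no contralateral one then held the promoter peak. Cutting to 36011 peaks by −log10 q shortened the 18mo contralateral lists (51166 to 60755 peaks) more than the IOP lists (36011 to 48723). The share of all genes that turned in this way was not counted.

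**Figure D4:**
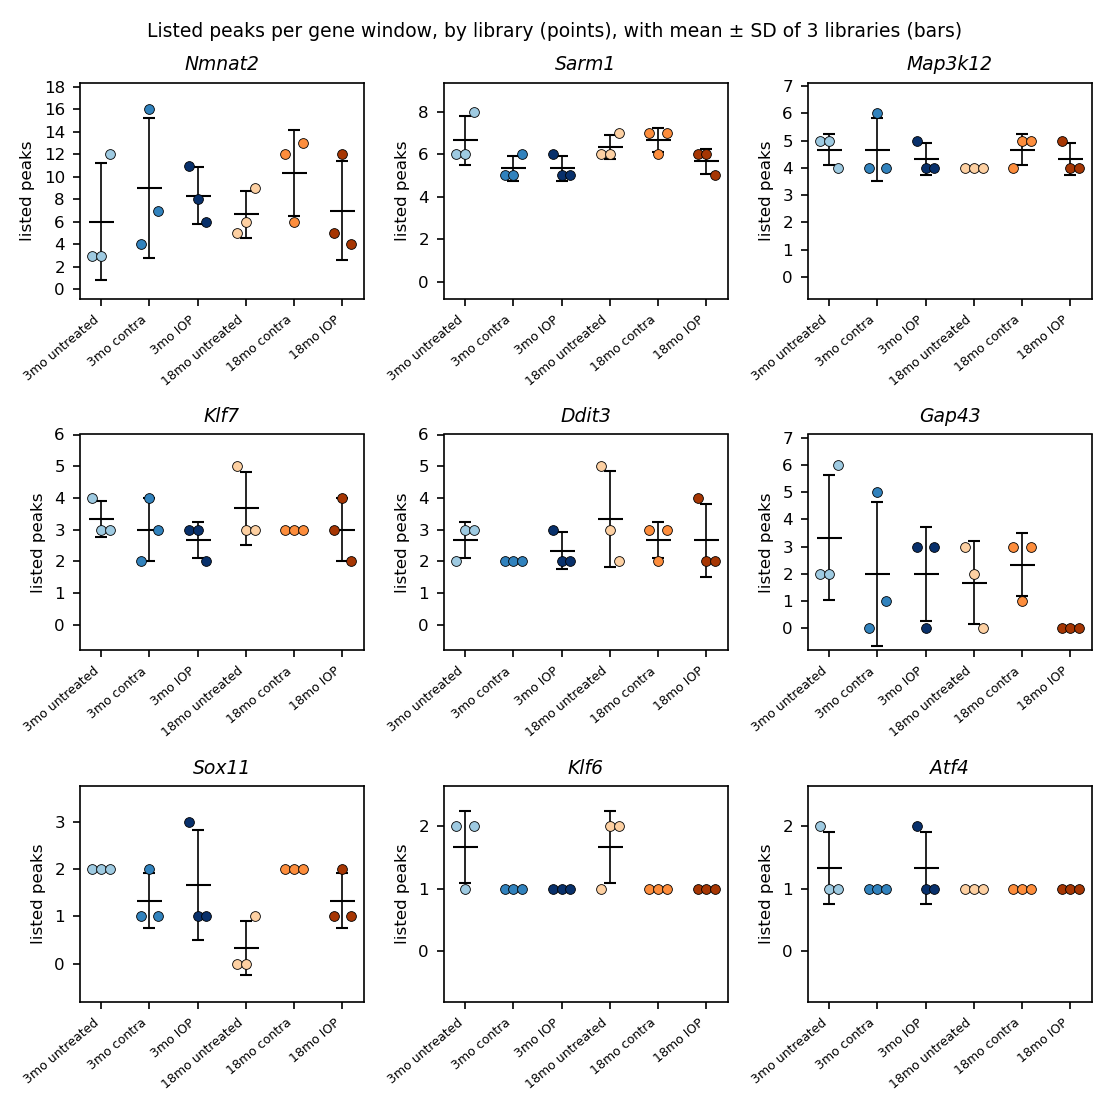
Number of listed peaks per library (points) for each gene with peaks, by group, with the mean ± SD of the 3 libraries. The spread within groups is widest for Nmnat2 (3 to 16 peaks), and Gap43 has 0 peaks in each 18mo IOP library and 1 to 3 in each 18mo contralateral library.

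In peak height, none of the 14 constant member regions changed after IOP at 3mo (0% of all 24751 regions did, limma, adjusted p under 0.05, with 755 at an unadjusted p under 0.05, 1 of them a member) or at 18mo (0.0525% of all regions). The promoters of Atf4 and Sarm1 had an unadjusted p under 0.05 at 18mo, as did 2758 of all regions, and neither passed adjustment. For Atf4 the change was 0.30 on the log2 scale (SE 0.13, limma adjusted p = 0.440), with folds of 8.72, 7.22 and 6.79 after IOP and 7.22, 6.65 and 7.68 in contralateral retinas before scaling to the library median. For Sarm1 it was 0.29 (SE 0.13, limma adjusted p = 0.445), with folds of 7.8, 7.1 and 7.39 against 6.96, 6.45 and 7.98. The unscaled folds overlapped in both cases. At 3mo the same estimates were -0.04 and 0.04, and the difference between ages did not pass for Atf4 (0.34, SE 0.18, limma adjusted p = 0.886) or any other region of the series. Ddit3, downstream of ATF4, changed by 0.09 (SE 0.14, adjusted p = 0.772 in limma) and Klf6 by 0.13 (SE 0.11, adjusted p = 0.601 in limma) at 18mo.

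The region 8.2 kb upstream of Map3k12, at the Npff promoter, had lower values after IOP at both ages. At 3mo its folds were 5.13, 5.29 and 5.35 in the IOP libraries and 6.45, 11 and 6.97 in the contralateral ones. At 18mo they were 5.16, 5.86 and 5.62 against 7.93, 6.07 and 10.6. These folds overlapped at neither age, but relative to the library median the 18mo groups did overlap (-0.83, -0.49 and -0.28 after IOP against -0.32, -0.43 and 0.07). In limma the change was -0.54 at 3mo (SE 0.17, limma adjusted p = 0.99997) and -0.30 at 18mo (SE 0.17, limma adjusted p = 0.469). By percentile of the fold within the library its mean was 43.2 after IOP and 66.2 in contralateral retinas without overlap, a pattern held by 0.208% of all regions (exact permutation p = 0.005, the smallest possible, adjusted p = 0.667), so it did not pass over the series. Ranked by −log10 q the groups overlapped, at 26.82 to 48.65 after IOP and 46.34 to 73.6 in contralateral retinas (exact permutation p = 0.01, adjusted p = 0.71). In all, 2 member regions ranked lower in fold after IOP with an unadjusted p under 0.05 (4.07% of 70800 regions did) and 1, the Sarm1 promoter, ranked higher (1.06%). The other lower one was the Sarm1 intron region (36.7 against 47.7, p = 0.045, exact permutation test). By −log10 q, 1 member region ranked lower at that level (4.71% of regions) and 0 ranked higher (0.763%).

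**Figure D5:**
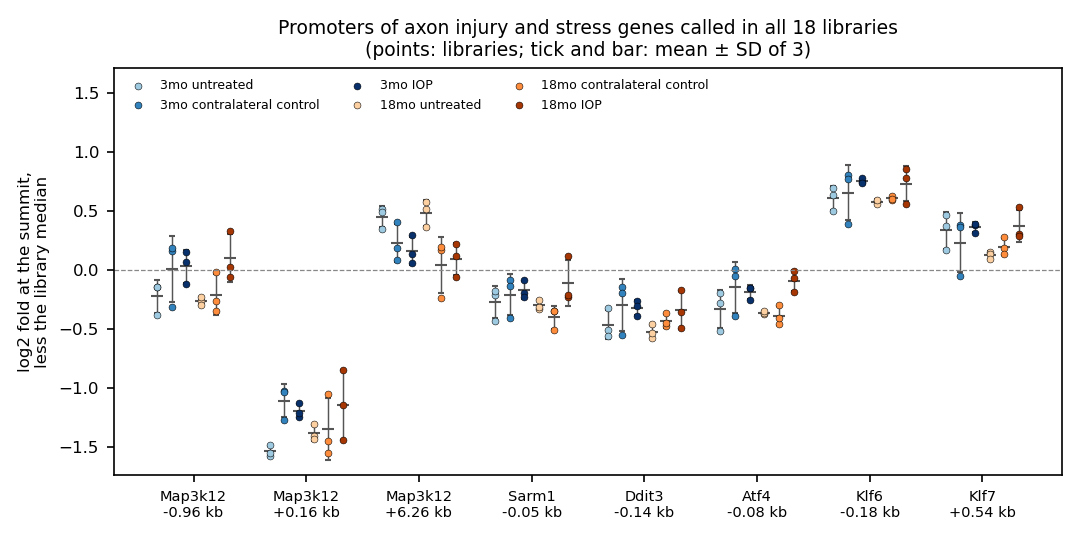
Log2 fold of the promoter peaks called in every library relative to the library median, by group, with points for libraries and bars for the mean ± SD of 3. The mean of Klf6 is highest and that of the Map3k12 main start lowest in every group, and no promoter separates the ages or the IOP and contralateral libraries past the adjusted threshold.

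The 2 kinds of control were compared last, since both serve as the baseline for age. Neither peaks per gene (0 of 9 members, against 8.9% of 26715 genes at an unadjusted p under 0.05 by exact permutation) nor calls (0 of 4, against 11.4% of 9868 regions by Fisher's exact test) separated them for these genes. Peak height did for 2 of 14 member regions, and for 33.6% of all constant regions, in limma at an adjusted p of 0.05. The Sarm1 exon region was higher in contralateral than in untreated retinas by 0.45 (SE 0.11, limma adjusted p = 0.0039). Its values relative to the library median were -0.41, -0.28, -0.91, -0.50, -0.65 and -0.56 in the contralateral libraries and -1.02, -0.95, -1.07, -0.81, -1.0 and -1.17 in the untreated ones, with 1 library of each kind overlapping. The internal Map3k12 promoter was lower in contralateral retinas by 0.33 (log2 change -0.33, SE 0.087, limma adjusted p = 0.0076). Its values were 0.19, 0.09, 0.40, 0.17, -0.23 and 0.19 against 0.51, 0.49, 0.35, 0.36, 0.52 and 0.57, where 1 contralateral library overlapped the untreated ones. By percentile 4 member regions were lower and 4 higher in contralateral retinas at an unadjusted p under 0.05, against 10.1% and 12.3% of all regions (exact permutation test). These differences run along the split in shortest peak length given above (79 to 89 bp untreated, 114 to 157 bp contralateral), from which the kind of control cannot be told apart.

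Of the 48 genes of the pathway list, 41 could be tested for age and 37 for IOP by peaks per gene, with 0 and 1 at an unadjusted p under 0.05 by exact permutation. The one was Atf5, a stress response factor related to ATF4, with 2 peaks in every IOP library and a mean of 2.83 in contralateral ones (exact permutation p = 0.02, adjusted p = 1). For the kind of control, 8 of 41 had fewer peaks in contralateral retinas at that level, against 7.27% of all genes, and none passed adjustment.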

How the data were processed

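Whole mouse retina was profiled by ATAC-seq in 18 libraries. Per the labels, the authors used STAR 2.7.8a, MACS2, HOMER, edgeR and bedtools 2.29.2 with the build mm10. The deposited file of each library is a MACS2 peak list with, for each peak, a score, the signal value as a fold enrichment (a linear ratio), the −log10 p-value and the −log10 q-value. Peaks were called in each library separately, and the lowest −log10 q-value in any list was 1.30. The deposited lists hold no read counts, so depth per library is not known here, no counting interval is given, and the edgeR test of the study was not run.

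The 911837 listed peaks were joined into 99792 intervals wherever they overlapped by 1 bp or more, and the 73567 intervals supported by 2 or more libraries served as consensus regions. Groups were taken from the sample labels. Calls were compared by Fisher's exact test for age and kind of control and by an exact conditional test stratified by age for IOP, peaks per gene by an exact permutation test over 924 arrangements (400 within age for IOP), and the log2 of the highest fold in a region, minus the library's median, by limma 3.58.1 with trend (R 4.3.3) over the 24751 regions called in every library. P-values were adjusted by the Benjamini-Hochberg method over all features tested, at a threshold of 0.05. All tests were two-sided. The scripts (Python 3.11.15, scipy 1.17.1) were tested on simulated data.

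All 10 genes were described. Of their regions, those at a member promoter, those gained or lost in every library, and those past a test were to be named, and other regions and genes are named after their values were seen. The members and gene lists were chosen with earlier results of these data known. Alternatives were a stricter threshold (q of 0.01), equal list lengths, a peak covering 50% of a region, other windows, other scalings, −log10 q in place of the fold, a replicate block and each library left out. For calls, shortest peak length and, for age, the kind of control also served as strata. Percentile ranks within the library were added after the data had been seen. Replicate numbers were checked for pairing, but the correlations followed the shortest peak length and could not decide it. Libraries were treated as unpaired in the main tests.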

Additional observations from a re-analysis of the deposited data

Results flagged for a closer look

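Among 45 sets of 6 control libraries of one age (peak counts and constant regions of the members), 6 had 1 library far from the others, where chance gives about 1 in 20 for continuous values. That rate does not apply to small whole counts, in which any single library that differs stands apart. In 4 of them the library standing apart was an untreated one with more peaks. Sarm1 had 8 peaks in 3mo untreated replicate 6 and 5 to 6 in the other 3mo controls. Atf4 had 2 peaks in 3mo untreated replicate 4 and 1 in each of the others. In 18mo untreated replicate 4, Ddit3 had 5 peaks against 2 to 3 in the other 18mo controls, and Klf7 had 5 against 3.

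The other 2 were peak heights in 18mo contralateral libraries, as log2 fold relative to the library median. The region shared by Map3k12 and Tarbp2 stood at -0.016 in replicate 2, against -0.34 to -0.23 in the other 18mo controls. The Sarm1 promoter stood at -0.51 in replicate 1, against -0.35 to -0.25.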

How the results depend on the processing

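Peaks per gene that passed no test changed sign in places: IOP minus contralateral was -0.667 peaks for Sox11 at 18mo and 1.33 with equal list lengths, and -0.667 for Nmnat2 at 3mo, 0.667 with equal list lengths and 2.83 without 3mo contralateral replicate 2. Counts of member regions or genes past a rule moved in a few settings. With equal list lengths, region calls for age rose from 0 to 1 (the Sox11 promoter), peaks per gene for age from 0 to 1 (Sox11, exact permutation p = 0.00217, adjusted p = 1), regions gained after IOP at 18mo from 0 to 1 (Sox11 promoter) and genes with more peaks in every 18mo IOP library from 0 to 1 (Sox11), while the loss of the Gap43 intron peak and of Gap43 peaks at 18mo went from 1 to 0 each. With a peak required to cover 50% of a region, that loss also went to 0, 1 region (Nmnat2, at 80.65 kb) was gained at 3mo and 4 (Klf7 at 43.28 kb, the Sarm1 promoter, the Vtn promoter and the Map3k12 start) separated the kinds of control, as did 6814 regions of the series where none had. By rank of the fold within the library, 3 regions had an unadjusted p under 0.05 for age, 3 for IOP and 8 for the kind of control. With −log10 q in place of the fold, 5 regions in place of 2 separated the kinds of control in height. The causes were not tested.

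Leaving out 1 library gave 0 to 1 regions for the kind of control (Gap43 at 46.4 kb without 3mo contralateral replicate 2 or 18mo untreated replicate 6), 0 to 1 gained at 3mo (Nmnat2 at 80.65 kb, without 3mo contralateral replicate 2), 0 to 1 lost at 3mo (Nmnat2 at 85.27 kb, without 3mo contralateral replicate 1) and 0 to 1 gained at 18mo (Klf7 at 0.96 kb, without 18mo IOP replicate 3). Losses at 18mo ran from 1 to 3 (without 18mo contralateral replicate 2 the Gap43 promoter and the Sox11 exon region were added). Genes with fewer peaks in every 18mo IOP library ran from 1 to 3 (3 without 18mo IOP replicate 2, with Nmnat2 and Sox11, and 2 without 18mo contralateral replicate 2, with Sarm1).

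No constant member region passed for age or IOP in peak height in any of 224 values per comparison (smallest limma adjusted p 0.145 for age and 0.269 for IOP). The sign of the main estimate was kept in 210 for age, 203 for IOP at 3mo and 218 at 18mo. Both kind of control calls held in all 16 limma settings each. By exact permutation of fold percentiles the internal Map3k12 promoter passed (adjusted p = 0.0354) and the Sarm1 exon region did not (adjusted p = 0.146). Ranked by −log10 q neither passed (exact permutation, adjusted p = 0.0759 and 0.133). With the replicate block 0 members passed for age or IOP, while the series counts fell from 85 to 14 for age and from 13 to 1 for IOP at 18mo. Over the settings the series count ran from 4 to 359 for age, 0 to 21 for IOP at 3mo and 1 to 53 at 18mo. Correlations of same-numbered IOP and contralateral libraries of one age were -0.31, -0.24 and 0.20 at 3mo and 0.36, 0.21 and -0.17 at 18mo. They were positive where both libraries fell in the same class of shortest peak length and negative where they did not. The check therefore cannot show whether equal numbers mark eyes of the same mouse, and the main tests treated libraries as unpaired. Calls near the threshold of each list and the lack of read counts limit what can be seen at Gap43, Nmnat2 and Sox11, and only regions called in 5 to 7 of 12 controls could be tested for calls.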
